A study of Danio rerio with 6 samples.

Results

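Transcripts of the lysosome were measured in whole zebrafish embryos at 48 hours post-fertilization, by poly-A RNA sequencing of 3 wildtype libraries and 3 libraries of homozygous dnajc21 mutants. The genes described are the subunits and accessory proteins of the proton pump (symbols starting atp6v or atp6ap), the cathepsins (cts followed by a letter), legumain (lgmn), 5 hydrolases (gba, hexa, hexb, glb1 and gaa), and the lamp and npc genes lamp1a, lamp1b, lamp2, npc1 and npc2. They were taken by gene symbol, in lower case, and gave 54 of the 35197 rows of the count table. The symbols were set with earlier results of these data known, so the genes are not a blind choice. The hatching gland cathepsin ctslb was left out by the rule, as were rows in capitals such as NPC2 (1 of many). Neither group received a treatment, and each library was made from a pool of 30 to 50 embryos. Wildtype columns of the table are headed casper, the name of a strain that lacks most pigment cells; the mutants' strain and their dnajc21 lesion are not given. Separate clutches are not stated for the pools, and p-values therefore cover only the spread among these 6 libraries, some of which may be technical.

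Lysosomes are acidic compartments in which the cell breaks down proteins, glycans, lipids and worn-out organelles. The vacuolar ATPase, or V-ATPase, makes them acid. Its cytosolic V1 sector burns ATP to turn a rotor, and its membrane V0 sector uses that turning to move protons across the membrane. Cathepsins are the lysosomal proteases, most of which need the acid to mature and to work, and the other hydrolases cut sugars from glycolipids and glycogen. In the zebrafish embryo the same pump also drives acid secretion by skin ionocytes and fills synaptic vesicles in neurons, and lysosomal enzymes are used by the yolk syncytial layer to break down yolk.

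The libraries held 8600951 to 11798543 counts, and 52 of the 54 rows had enough counts to be tested. Values are CPM, each row's count scaled to a common library total after TMM factors, which correct for composition. They are not divided by transcript length and so do not rank transcripts against each other. The dnajc21 transcript measured 22.6, 24.9 and 30.9 CPM in wildtype replicates 1 to 3 and 16.9, 19.7 and 17.3 CPM in mutant replicates 1 to 3. All mutants lay below all wildtypes (log2 fold change -0.55, SE 0.12, edgeR adjusted p = 0.00492). Markers of neurons (11 of 11 tested), ionocytes (18 of 19), notochord (9 of 10) and yolk syncytial layer (14 of 17) passed the same filter. In a principal component analysis the first axis held 45.9% of the variance. It set the wildtypes (-35.26 to -29.92) apart from the mutants (30.54 to 34.03). The second axis, with 19.5%, spread the wildtype libraries widely, with replicate 1 at 38.73 and replicate 2 at -32.71. On it the mutants lay between -5.192 and 3.988.

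The pump, cathepsin, hydrolase, lamp and npc genes changed little. At an adjusted p under 0.05, 1 of the 52 tested rows was higher in mutants (npc1) and 5 were lower (atp6v1ab, atp6v1e1a, atp6v1g1, atp6v0ca and ctsk). That is 1.92% higher and 9.62% lower, against 5.85% and 5.87% of all 20229 rows tested. In either direction it is 11.5% against 11.7%, so the share of called genes was close to that of the whole table. Mutant and wildtype libraries did not overlap in 12 of the 52 rows (23.1%, against 30.5% of all rows), 11 of them with all mutants below, against 15.4% of all rows, and 1 with all above, against 15.1%. In 43 rows the absolute log2 fold change was under 0.25, and in 4 it was over 0.5. Without wildtype replicate 1, mutant replicate 1 or mutant replicate 2, 2 rows were called lower, and 3 without mutant replicate 3. The count of rows called higher was 2 without wildtype replicate 1 and 0 without wildtype replicate 3 or any mutant replicate.

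**Figure D1:**
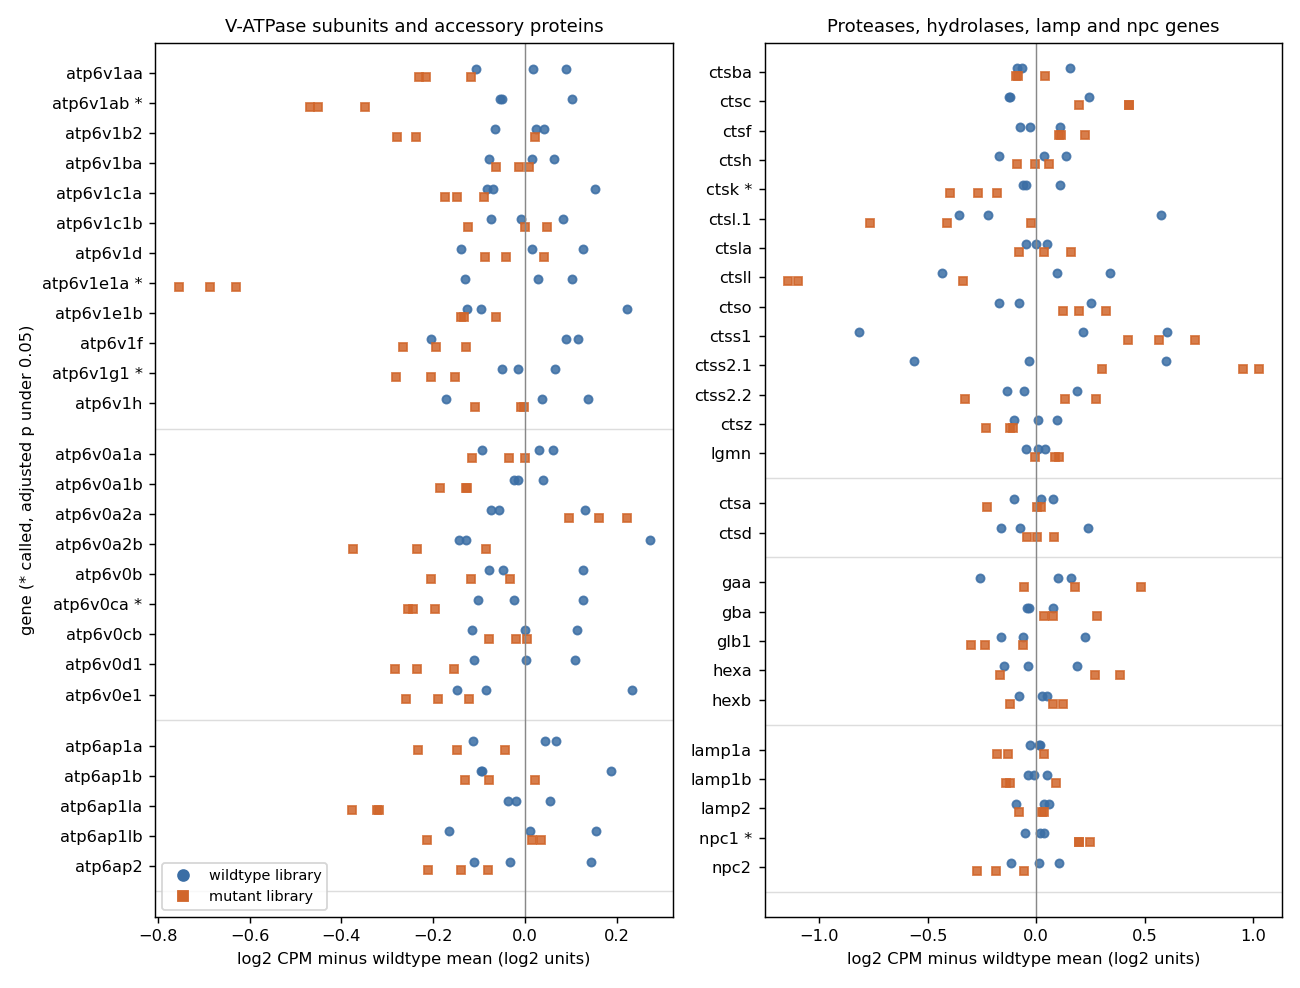
Each gene's log2 CPM in each library minus its wildtype mean, for the 26 tested V-ATPase rows (left) and the 26 other tested rows (right), with wildtype libraries as circles and mutants as squares; the horizontal scales of the panels differ. Most pump rows have their mutants left of zero, with atp6v1ab and atp6v1e1a farthest, while the other genes scatter to both sides and ctss2.1 and ctsll spread most among rows of 10 CPM or more in wildtype.

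Most V-ATPase transcripts whose symbols start with atp6v or atp6ap were slightly lower in mutants. Of these 26 tested pump rows, 25 had a log2 fold change below 0, with a median of -0.14, against 51% of all rows tested and a median of -0.01. The test called 4 of them lower, 15.4% against 5.87% of all rows, and 0 higher, against 5.85%. In either direction it is 15.4% against 11.7%. Unadjusted edgeR p was under 0.05 in 7 of the 26 pump rows, and in 5160 of all 20229 rows tested, which is a similar share. The mutants lay below all wildtypes in 9 of the pump rows, or 34.6%, against 15.4% of all rows. The summed level of the 22 V1 and V0 rows was 1554, 1440 and 1402 CPM in wildtype replicates 1 to 3 and 1360, 1295 and 1326 CPM in the mutants, a ratio of means of 0.906. The wildtype total was highest in replicate 1, yet the lowest wildtype library still exceeded the highest mutant. Across the 26 rows the median deviation from the wildtype mean was 0.067, -0.013 and -0.076 log2 units in the wildtype libraries and -0.083, -0.19 and -0.14 in the mutants, so wildtype replicate 3 and mutant replicate 1 were nearly level. Wildtype replicate 1 held the highest wildtype value in 17 of 26 rows. Without it, 19 rows were below 0 and the median was -0.12; without any other single library 23 to 25 were. Under upper-quartile, DESeq2 or plain library scaling 25 remained below 0 each time. In bulk RNA, fewer cells of a type and less RNA per cell cannot be told apart. The rows come from the same libraries and are not independent measurements. A pair of further pump genes, tcirg1a and tcirg1b, encode V0 subunit a under symbols outside the rule and are not in these counts. The tcirg1b row was at 38.2, 38.7 and 42.6 CPM in wildtypes and 44.7, 45.0 and 44.8 CPM in mutants, all above, and did not pass (log2 fold change 0.17, SE 0.08, edgeR adjusted p = 0.169). Its copy tcirg1a was level (log2 fold change -0.02, adjusted p = 0.948).

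The V1 sector held 3 of the 4 called pump genes, 25% of its 12 tested rows, and the V0 sector held 1, 11.1% of 9. Of all rows tested, 11.7% were called. Of the 3, atp6v1g1 lay at the threshold and atp6v1e1a shares reads with another gene, as described below. Subunit A carries the catalytic ATP site and has a pair of copies, atp6v1aa and atp6v1ab. The copy atp6v1ab measured 46.6, 51.8 and 46.4 CPM in wildtype replicates 1 to 3 and 37.8, 35.2 and 34.8 CPM in mutant replicates 1 to 3. Its groups were well apart, and the mutant mean was 25.5% below the wildtype in the fit (log2 fold change -0.42, SE 0.08, edgeR adjusted p = 0.00166). It was called with each library left out (adjusted p of 0.00131 to 0.0166), as was atp6v1e1a, and it alone was called in all 12 fits of all 6 libraries. The other copy, atp6v1aa, measured 149, 141 and 130 CPM against 129, 119 and 120 CPM. Its mutants also lay below all wildtypes, narrowly, and it did not pass (log2 fold change -0.19, SE 0.07, adjusted p = 0.0926). The share of subunit A counts on atp6v1ab was 23.9%, 26.8% and 26.4% in wildtypes and 22.7%, 22.8% and 22.4% in mutants, again without overlap.

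Subunit G belongs to the peripheral stalks that hold the motor still against the rotor. Its gene atp6v1g1 measured 140, 129 and 132 CPM in wildtypes and 116, 110 and 120 CPM in mutants, without overlap (log2 fold change -0.21, SE 0.07, edgeR adjusted p = 0.0469). This call lay at the threshold. It ended without wildtype replicate 1 (adjusted p = 0.0853) or 3 (0.0837) and without mutant replicate 1 (0.154), 2 (0.229) or 3 (0.0979), and it held in 6 of 12 fits of all 6 libraries. The nucleotide-binding subunit B gene atp6v1ba stayed level, at 130, 126 and 118 CPM in wildtypes and 125, 119 and 123.3 CPM in mutants (log2 fold change -0.02, SE 0.07, adjusted p = 0.875; 0.01 without wildtype replicate 1). The remaining V1 rows that did not pass were atp6v1b2 for subunit B, atp6v1c1a and atp6v1c1b for the regulatory subunit C, atp6v1d and atp6v1f for the rotor stalk, atp6v1e1b for the peripheral stalk and atp6v1h for the regulatory subunit H. With atp6v1ba and atp6v1aa they make 9 V1 rows not called, all with a log2 fold change between -0.20 and -0.02. Among them atp6v1e1b, the copy with most of the subunit E counts, measured 106.5, 85.4 and 83.6 CPM in wildtypes and 87.4, 82.8 and 83.2 CPM in mutants. Only wildtype replicate 1 stood apart there (log2 fold change -0.12, SE 0.08, adjusted p = 0.417; 0.003 without that library). The rotor gene atp6v1f was at 30.9, 30.3 and 24.7 CPM against 26.0, 24.9 and 23.7 CPM, and atp6v1d at 83.1, 76.9 and 69.1 CPM against 78.4, 71.7 and 74.0 CPM, both overlapping. In atp6v1c1a, at 53.1, 45.5 and 45.1 CPM against 44.9, 43.1 and 42.4 CPM, the mutants lay just below the wildtypes. A further subunit C gene, atp6v1c2, had 0 to 3 counts a library and was not tested.

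The lowest fold change in the pump, on atp6v1e1a, came from a row that shares reads with another gene. This copy of stalk subunit E measured 11.9, 12.6 and 10.7 CPM in wildtypes and 7.50, 6.86 and 7.20 CPM in mutants (log2 fold change -0.70, SE 0.14, edgeR adjusted p = 0.00224). Its counts are not whole numbers in any library, but in each of the 6 libraries they make a whole number together with those of slc25a18, a mitochondrial glutamate carrier gene that lies next to it among protein-coding genes of the RefSeq table. The row slc25a18 went the other way, from 10.7, 11.6 and 12.9 CPM to 15.3, 16.0 and 14.8 CPM (log2 fold change 0.38, SE 0.12, adjusted p = 0.0430). That call held without wildtype replicate 3 and was lost with each of the other libraries left out (adjusted p of 0.0845 to 0.154). The summed row held 22.6, 24.2 and 23.6 CPM in wildtypes and 22.8, 22.8 and 22.0 CPM in mutants, which overlapped (log2 fold change -0.06 with SE 0.09, adjusted p = 0.748). The share of the pair's counts assigned to atp6v1e1a was 45.3% to 53.1% in wildtypes and 30.0% to 33.0% in mutants. The summed row was thus not called. Whether the division of reads or opposite changes of both genes lie behind the call on atp6v1e1a was not tested.

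**Figure D2:**
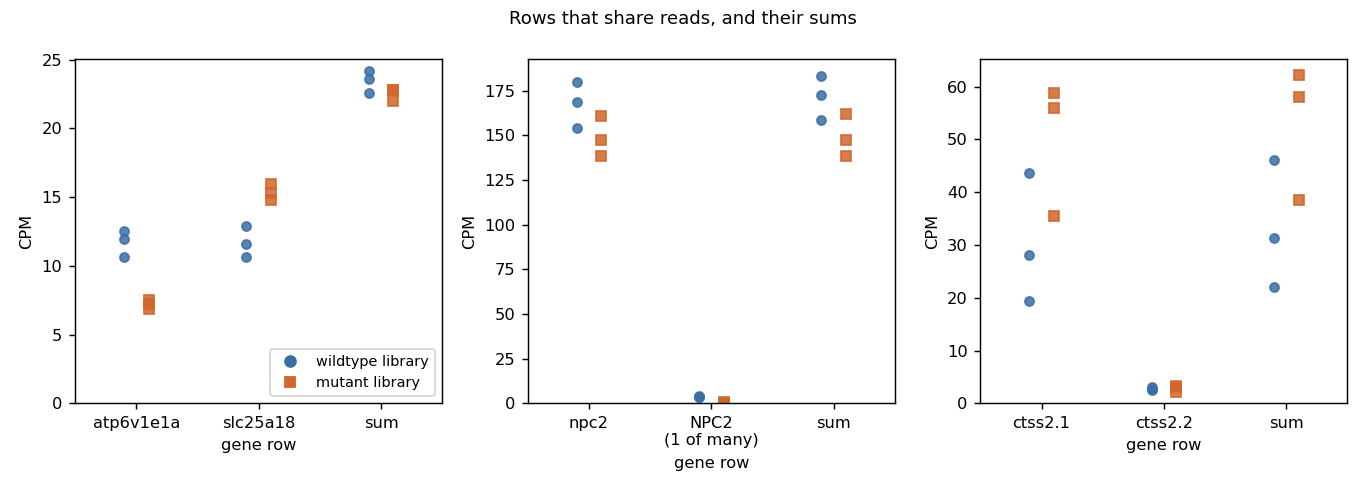
CPM of 3 pairs of rows that share reads, and of their sums, in wildtype (circles) and mutant libraries (squares). The rows atp6v1e1a and slc25a18 move in opposite directions while their sum overlaps between groups, and the sums of the npc2 and ctss2.1 pairs follow npc2 and ctss2.1.

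In the membrane sector, the called gene was atp6v0ca. It encodes the c subunit, whose ring carries the protons. It measured 273, 233 and 246 CPM in wildtypes and 211, 210 and 219 CPM in mutants, without overlap (log2 fold change -0.23, SE 0.07, edgeR adjusted p = 0.0328). Wildtype replicate 1 stood highest. The call ended without wildtype replicate 1 (adjusted p = 0.0746) or 3 (0.0623), without mutant replicate 1 (0.138), 2 (0.156) or 3 (0.0954), and it held in 10 of 11 fits of all 6 libraries. The row shares a few reads with CR387933.1, and with both summed the log2 fold change was also -0.23. The other c subunit copy, atp6v0cb, measured 100.2, 92.6 and 85.5 CPM against 91.3, 92.9 and 87.6 CPM and overlapped (log2 fold change -0.03, SE 0.07, adjusted p = 0.826; 0.03 without wildtype replicate 1). The share of subunit c counts on atp6v0cb was 25.8% to 28.4% in wildtypes and 28.6% to 30.7% in mutants.

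Of the other V0 rows, atp6v0b, for a further proteolipid of the ring, measured 57.2, 58.4 and 65.9 CPM against 59.1, 52.4 and 55.6 CPM and overlapped (log2 fold change -0.12, SE 0.08, edgeR adjusted p = 0.369). A further 4 genes, atp6v0a1a, atp6v0a1b, atp6v0a2a and atp6v0a2b, encode the large a subunit that forms the proton path. The row atp6v0a2a was the only atp6v or atp6ap row with a log2 fold change above 0 (0.16, SE 0.08, adjusted p = 0.215; 0.0489 without wildtype replicate 1). It measured 48.3, 42.4 and 41.9 CPM in wildtypes and 49.4, 47.2 and 51.5 CPM in mutants, which overlapped in a narrow range. Its share of the counts of these 4 rows was 28.2% to 32.1% in wildtypes and 34.0% to 35.5% in mutants. With tcirg1a and tcirg1b counted as well the share was 21.2% to 24.5% and 24.8% to 26.3%, still without overlap but by a narrow gap. The row atp6v0d1, for the subunit that couples the ring to the V1 rotor, was at 60.4, 65.1 and 55.8 CPM against 54.2, 51.2 and 49.6 CPM, without overlap, and did not pass (log2 fold change -0.23, SE 0.08, adjusted p = 0.0702; 0.0358 without wildtype replicate 3). Both genes were picked with their values in view. The a subunit gene atp6v0a1b was at 48.0, 46.2 and 46.0 CPM against 42.8, 41.1 and 42.7 CPM, also without overlap and not past the test (log2 fold change -0.15, SE 0.07, adjusted p = 0.224). The small e subunit gene atp6v0e1 has non-whole counts in all 6 libraries, and no partner row was found for it.

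**Figure D3:**
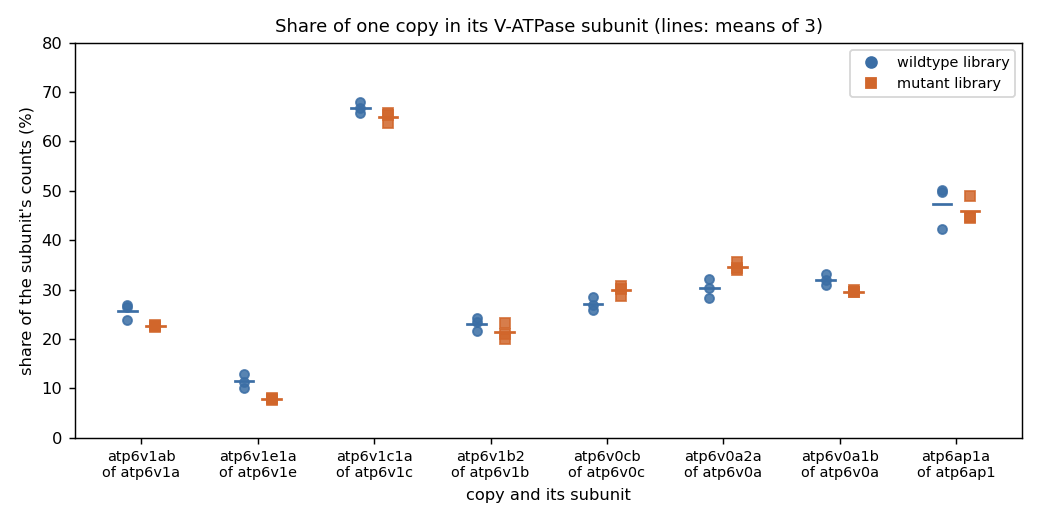
Share of a V-ATPase subunit's counts held by a given copy, in percent, per wildtype library (circles) and mutant library (squares), with lines at the means of 3. Shares of atp6v1ab, atp6v1e1a, atp6v1c1a and atp6v0a1b are lower in all mutants and those of atp6v0cb and atp6v0a2a higher, by up to a few percentage points, while those of atp6v1b2 and atp6ap1a overlap; subunit a shares are of the 4 atp6v0a rows, without tcirg1a and tcirg1b, and the atp6v1e1a share carries the division of reads with slc25a18.

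Accessory proteins help the pump assemble and travel. The gene atp6ap1, copied as atp6ap1a and atp6ap1b, encodes the Ac45 protein, atp6ap1la and atp6ap1lb encode related proteins, and atp6ap2 encodes the prorenin receptor. All 5 had log2 fold changes below 0, from -0.34 to -0.06, and edgeR called 0 of them, as did DESeq2 and limma-voom. Unadjusted edgeR p was under 0.05 in 1 of the 5, and in 5160 of all 20229 rows tested. The level of atp6ap2 was 76.0, 67.2 and 63.6 CPM in wildtypes and 65.0, 59.4 and 62.4 CPM in mutants, which overlapped (log2 fold change -0.14, SE 0.08, edgeR adjusted p = 0.265). That of atp6ap1b was 34.8, 34.7 and 42.3 CPM against 37.7, 35.1 and 33.9 CPM (log2 fold change -0.07, SE 0.09, adjusted p = 0.686; 0.04 without wildtype replicate 3). The lowest of these rows, atp6ap1la, chosen after its values were seen, measured 15.8, 15.01 and 14.8 CPM against 12.1, 11.7 and 12.2 CPM. Its groups were apart, and it missed the threshold (log2 fold change -0.34, SE 0.11, edgeR adjusted p = 0.0587; 0.0494 without robust weights).

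A working pump needs each kind of subunit. The gene copies of each subunit with an atp6v or atp6ap symbol were therefore also added together, and the whole table was refitted. All 16 subunit and accessory sums had log2 fold changes below 0, from -0.26 to -0.03 (14 to 16 of them with 1 library left out). Of the 16, 2 were called lower and 0 higher. In that fit 5.87% of all rows were called lower and 11.7% in either direction. The mutants lay below all wildtypes in 6, or 37.5%, against 15.4% of all rows before summing. The subunit a sum depended on which copies it held. From the 4 atp6v0a rows it was -0.04 on the log2 scale (edgeR adjusted p = 0.788). With tcirg1a and tcirg1b added it totalled 197, 185.5 and 198 CPM in wildtypes and 198, 190 and 196 CPM in mutants and overlapped (log2 fold change 0.0095 with SE 0.06, adjusted p = 0.9498). In that fit 15 of 16 sums were below 0. It was -0.020 without wildtype replicate 2, and above 0 with any other library left out or under the other scalings. Subunit A totalled 195, 193 and 176 CPM in wildtypes and 167, 154 and 155 CPM in mutants (log2 fold change -0.25, SE 0.07, edgeR adjusted p = 0.0242). Its call ended without wildtype replicate 2 (adjusted p = 0.0543) or mutant replicate 2 (0.136) or 3 (0.122). The other was subunit G, a lone row, described above. Subunit B, which pairs with A in the ATPase head, totalled 166, 164 and 156 CPM against 163, 151 and 154 CPM and did not pass (log2 fold change -0.05, SE 0.07, adjusted p = 0.666). The difference between the A and B fold changes was not tested.

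**Figure D4:**
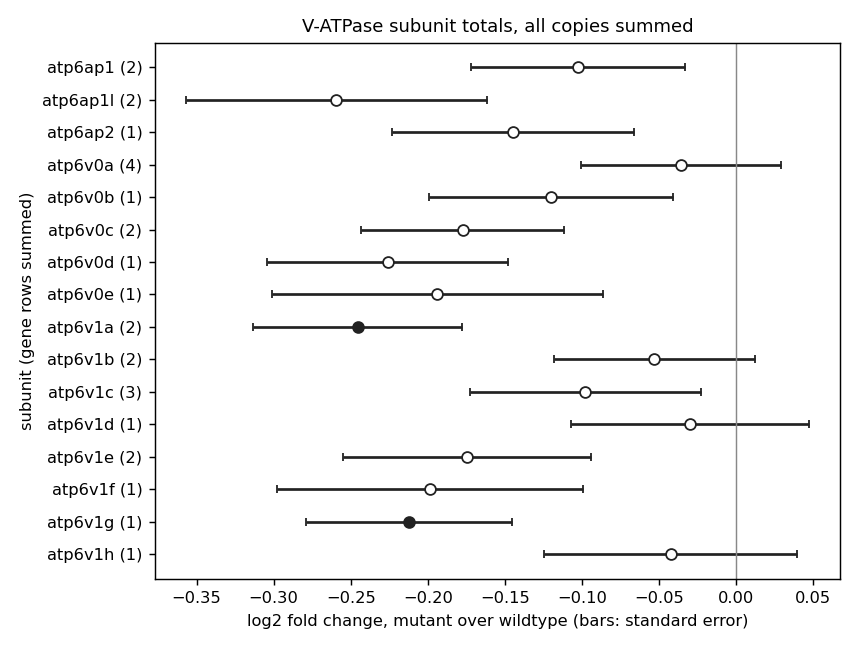
Log2 fold change, mutant over wildtype, of each V-ATPase subunit with its atp6v or atp6ap rows summed (number of rows in brackets; tcirg1a and tcirg1b not in atp6v0a), with bars for the standard error; filled points passed an adjusted p of 0.05. All 16 points lie below zero, atp6v1a and atp6v1g are filled, and with tcirg1a and tcirg1b added the atp6v0a value would be 0.0095.

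Among the lysosomal proteases, 1 of 16 tested rows was called, 6.25% against 11.7% of all rows, and 9 of the 16 had log2 fold changes above 0. The called gene was ctsk, for cathepsin K, which cuts collagen and in mammals is the main protease of bone-resorbing osteoclasts. It measured 47.5, 42.2 and 42.6 CPM in wildtypes and 36.6, 33.4 and 38.9 CPM in mutants, without overlap (log2 fold change -0.28, SE 0.08, edgeR adjusted p = 0.0354). Its call ended without wildtype replicate 1 (adjusted p = 0.0922) or 3 (0.0525), without mutant replicate 1 (0.111), 2 (0.185) or 3 (0.0535), and it held in 11 of 12 fits of all 6 libraries.

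Cathepsin L and B are broad cysteine proteases. The cathepsin L gene ctsla measured 1709, 1656 and 1774 CPM in wildtypes and 1622, 1758 and 1911 CPM in mutants, which overlapped fully (log2 fold change 0.04, SE 0.06, edgeR adjusted p = 0.720; -0.02 without mutant replicate 3). The cathepsin B gene ctsba was at 117, 98.7 and 100.2 CPM against 98.2, 98.9 and 108 CPM (log2 fold change -0.05, SE 0.08, adjusted p = 0.751; 0.04 without wildtype replicate 1). The second cathepsin B row, ctsbb, had 0 counts in all 6 libraries, where 3 counts, the limit that a count of 0 allows, would be 0.253 to 0.351 CPM. The cathepsin L row ctslb, outside the rule, stood at 76.0, 50.6 and 82.3 CPM in wildtypes and 201, 200 and 219 CPM in mutants. It was called higher (log2 fold change 1.57, SE 0.19, edgeR adjusted p = 0.00678). Its counts are not whole in any library, and no partner row was sought for it. The difference between the ctsla and ctslb fold changes was not tested.

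The cathepsin K and S genes ctsk, ctss2.1 and ctss2.2 lie side by side among protein-coding genes of the RefSeq table. Cathepsin S processes antigens in mammalian antigen-presenting cells. The row ctss2.1, chosen after its values were seen, had the widest wildtype spread of the 44 rows with at least 10 CPM in wildtype, a coefficient of variation of 40.5% against a median of 7.66%. It measured 28.1, 19.4 and 43.7 CPM in wildtypes and 35.6, 55.9 and 58.8 CPM in mutants. Wildtype replicate 3 reached above mutant replicate 1, and the difference did not pass (log2 fold change 0.71, SE 0.39, edgeR adjusted p = 0.361). Counts of ctss2.1 and ctss2.2 add up to whole numbers in 5 of 6 libraries, and as a sum they changed by 0.67 log2 units with SE 0.36, which did not pass (adjusted p = 0.350).

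A pair of other cathepsin rows came near the threshold and were picked with their values in view. The gene ctsc encodes cathepsin C, which in mammals activates the serine proteases of immune cell granules. It measured 13.6, 17.6 and 13.5 CPM in wildtypes and 20.0, 17.0 and 19.9 CPM in mutants, with wildtype replicate 2 above mutant replicate 2 (log2 fold change 0.35, SE 0.12, edgeR adjusted p = 0.0759; 0.0172 without wildtype replicate 2). The cathepsin L-like ctsll went from 14.5, 12.2 and 8.38 CPM to 5.06, 5.22 and 8.98 CPM, with wildtype replicate 3 below mutant replicate 3 (log2 fold change -0.85, SE 0.27, adjusted p = 0.0835). It was called lower without wildtype replicate 3 (adjusted p = 0.0173) or mutant replicate 3 (0.00703) and in 3 of 12 fits of all 6 libraries, with adjusted p from 0.0168 by DESeq2 to 0.280 with the replicate number as a block.

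Beyond the cysteine proteases, the aspartic protease gene ctsd measured 251, 190 and 202 CPM in wildtypes and 213, 207 and 225 CPM in mutants. Wildtype replicate 1 was the highest of the 6 libraries and wildtype replicate 2 the lowest, so the groups overlapped (log2 fold change 0.005, SE 0.09, edgeR adjusted p = 0.984; -0.07 to 0.14 with any 1 library left out). The serine carboxypeptidase gene ctsa, whose protein also shields beta-galactosidase and neuraminidase, was at 39.2, 34.6 and 37.8 CPM against 31.7, 37.3 and 37.7 CPM (log2 fold change -0.07, SE 0.09, adjusted p = 0.691; 0.02 without mutant replicate 1). The legumain gene lgmn, for an enzyme that cuts after asparagine, measured 60.6, 59.3 and 57.1 CPM in wildtypes and 62.7, 58.7 and 63.4 CPM in mutants (log2 fold change 0.06, SE 0.07, adjusted p = 0.638). The cathepsin F gene ctsf, which shares reads with its neighbour trpt1, was at 72.6, 65.9 and 63.8 CPM against 78.6, 72.8 and 72.4 CPM. Mutant replicate 1 was highest there, and both rows summed did not pass (log2 fold change 0.13, adjusted p = 0.266). The cathepsin Z gene ctsz had mutants below all wildtypes, at 19.4, 22.3 and 21.0 CPM against 19.2, 19.4 and 17.8 CPM, and did not pass (log2 fold change -0.16, SE 0.10, adjusted p = 0.347). The remaining rows ctsh, ctso, ctsl.1, ctss1 and ctss2.2 did not pass, and ctsl.1, ctss1 and ctss2.2 held under 4 CPM in each library.

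The hydrolase genes showed no call. They were hexa and hexb for the subunits of beta-hexosaminidase, glb1 for beta-galactosidase, gba for glucocerebrosidase and gaa for acid alpha-glucosidase, enzymes whose loss in humans causes lysosomal storage disease. Of 5 tested, edgeR called 0, as did DESeq2 and limma-voom. Unadjusted edgeR p was under 0.05 in 0 of the 5, and in 5160 of all 20229 rows tested. The hexb row measured 48.9, 45.4 and 49.7 CPM in wildtypes and 50.7, 44.1 and 52.3 CPM in mutants, which overlapped fully (log2 fold change 0.03, SE 0.08, edgeR adjusted p = 0.856). It shares reads with its neighbour gfm2, and both summed gave -0.0003. Leaving out wildtype replicate 2 gave hexb -0.0072 and leaving out mutant replicate 3 gave -0.014. The glb1 row measured 14.7, 12.1 and 11.2 CPM against 10.19, 12.1 and 10.7 CPM and overlapped (log2 fold change -0.20, SE 0.13, adjusted p = 0.370). The other hexosaminidase gene hexa was at 10.4, 8.87 and 8.20 CPM against 11.96, 8.09 and 11.0 CPM, and gba at 6.32, 6.82 and 6.26 CPM against 6.82, 7.88 and 6.64 CPM, with overlap in both. With 8 to 14 counts a library, gaa was too thinly covered to show a moderate change.

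Of the membrane glycoproteins and cholesterol carriers, npc1 was called higher. Npc1 is the membrane protein that passes cholesterol out of the lysosome, to which the soluble Npc2 hands it. The npc1 row measured 112, 107 and 114 CPM in wildtypes and 127, 132 and 127 CPM in mutants, without overlap and with little spread in either group (log2 fold change 0.21, SE 0.06, edgeR adjusted p = 0.0368). Its size held, at 0.19 to 0.23 with any 1 library left out. The call ended without wildtype replicate 2 (adjusted p = 0.0920) or 3 (0.0526), without mutant replicate 1 (0.106), 2 (0.169) or 3 (0.113), and it held in 10 of 12 fits of all 6 libraries.

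The partner gene npc2 leaned the other way. It was at 180, 154 and 169 CPM in wildtypes and 138, 147 and 161 CPM in mutants, overlapped through mutant replicate 3, and did not pass (log2 fold change -0.17, SE 0.08, edgeR adjusted p = 0.159). It shares reads with the row NPC2 (1 of many), which lies outside the rule and was named after its values were seen. That row went from 3.75, 4.29 and 3.68 CPM in wildtypes to 0.169, 0 and 0.748 CPM in mutants (log2 fold change -3.61, SE 0.50, adjusted p = 0.000238). Both rows together stood at -0.20 on the log2 scale with SE 0.08 and did not pass (adjusted p = 0.0928). The lysosomal membrane glycoprotein gene lamp2 measured 70.3, 64.2 and 71.6 CPM against 70.4, 70.0 and 65.0 CPM and overlapped fully (log2 fold change -0.005, SE 0.07, adjusted p = 0.980; above 0 with upper-quartile scaling and without wildtype replicate 1 or 3 or mutant replicate 3). The lamp1a row was at 32.9, 33.0 and 31.9 CPM against 29.7, 33.4 and 28.7 CPM and lamp1b at 29.0, 27.9 and 27.4 CPM against 29.9, 25.5 and 25.8 CPM, and neither passed (log2 fold changes -0.09 and -0.05).

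**Figure D5:**
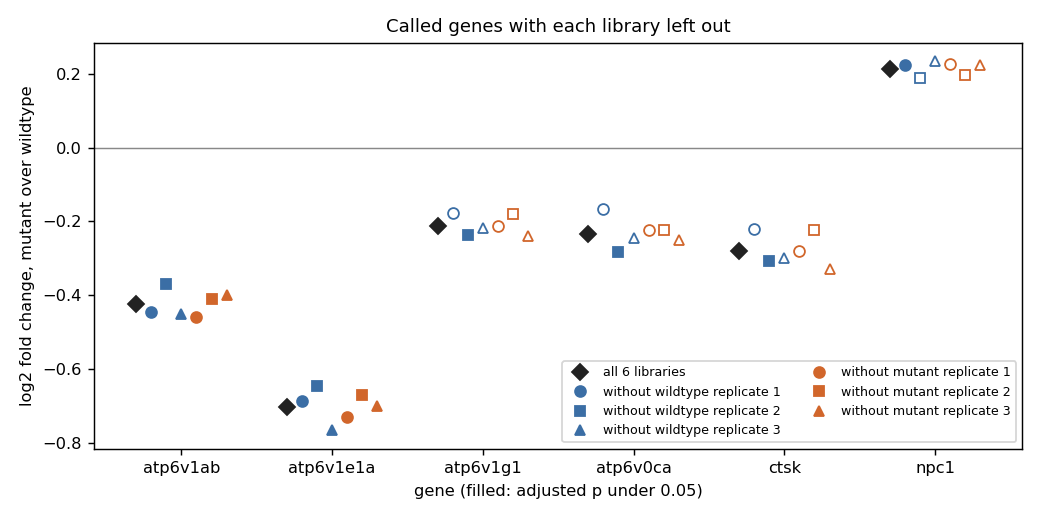
Log2 fold change, mutant over wildtype, of the 6 called genes with all libraries (diamonds) and with each wildtype or mutant library left out; filled symbols have an edgeR adjusted p under 0.05. The fold changes keep their sign throughout, and atp6v1ab and atp6v1e1a stay filled in every fit.

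The wider lysosomal system, from lists of 297 further genes of which 254 were tested, had 6 genes called higher and 16 lower, 8.66% against 11.7% of all rows. Among 49 genes listed as other lysosomal enzymes 6 were lower, 12.2% against 5.87% of all rows, and 0 higher, against 5.85%. In either direction it is 12.2% against 11.7%. The median log2 fold change of the 49 was -0.06. Whether the protein of each listed gene acts in the lysosome was not measured. The fucosidase gene fuca1.1, whose enzyme removes fucose from glycans, measured 79.2, 78.2 and 74.0 CPM in wildtypes and 48.7, 49.6 and 51.5 CPM in mutants, far apart (log2 fold change -0.63, SE 0.07, edgeR adjusted p = 1.2e-05). Its counts are not whole in any library, and no partner row was sought for it. Summed with the related row fuca1.2, it was lower as well (log2 fold change -0.45, edgeR adjusted p = 0.000340). The related fuca2 fell from 65.1, 62.3 and 65.3 CPM to 50.3, 49.0 and 54.7 CPM (-0.32, adjusted p = 0.00755; 0.0597 without mutant replicate 2). The lipase gene lipf fell by 0.28 on the log2 scale (adjusted p = 0.0149), a call that ended without mutant replicate 1 (0.0547), 2 (0.0742) or 3 (0.0958).

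Of 53 other membrane proteins and cofactors, 2 were higher and 6 lower, 15.1% against 11.7% of all rows. The GM2 activator gene gm2a, a cofactor that presents ganglioside to beta-hexosaminidase, fell from 13.8 ± 1.14 to 8.72 ± 1.24 CPM (SD, n = 3 each; log2 fold change -0.66, edgeR adjusted p = 0.00376). The Batten disease gene cln3 fell from 14.3 ± 1.04 to 9.47 ± 0.882 CPM (-0.59, edgeR adjusted p = 0.00491). The gene ostm1, for the partner of the chloride transporter Clcn7, fell from 10.9 ± 2.43 to 6.32 ± 1.202 CPM (-0.79, edgeR adjusted p = 0.00836; 0.0589 without mutant replicate 1 and 0.0583 without 3).

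Delivery of enzymes to lysosomes uses a mannose 6-phosphate tag, sorting adaptors and vesicle tethers. Of 62 such genes, 1 was higher and 4 lower, 8.06% against 11.7% of all rows. The gene nagpa, whose enzyme uncovers the tag, fell from 13.2 ± 2.16 to 8.37 ± 0.672 CPM (SD, n = 3 each; log2 fold change -0.66, edgeR adjusted p = 0.00526). The gene bloc1s5, of a complex for lysosome-related organelles, fell by 0.75 on the log2 scale (edgeR adjusted p = 0.00926; 0.0545 without mutant replicate 1), and the adaptor subunit ap1m1 by 0.28 (0.0179; 0.0699 without mutant replicate 1, 0.106 without 3 and 0.0522 by DESeq2). Counts of ap1m1 are not whole in any library, and no partner row was sought for it. Of 40 genes of lysosomal nutrient signalling, 1 was higher and 0 lower (2.5%, also under 11.7%). This was sesn3, for a sestrin, at 30.9 ± 1.12 against 39.0 ± 3.54 CPM (0.33, edgeR adjusted p = 0.0159; 0.0564 with wildtype replicate 3 left out, 0.0769 and 0.117 with mutant replicates 2 and 3 left out, and 0.0561 by DESeq2). Of 50 autophagy genes, 2 were higher and 0 lower (4% against 11.7%), both of the LC3 family that coats autophagosomes. They were map1lc3cl, at 5.00 ± 0.285 against 8.24 ± 0.678 CPM (0.73, edgeR adjusted p = 0.00606), and map1lc3b, at 112, 102.5 and 90.3 CPM in wildtypes against 126, 115 and 129 CPM in mutants (0.28, edgeR adjusted p = 0.0296). The map1lc3b call held without wildtype replicate 1 and ended without any other library (adjusted p of 0.0527 to 0.151) and without robust weights (0.0655). Of all these genes, the higher calls numbered 2 with wildtype replicate 3 left out, 3 with mutant replicate 1 left out, and 1 with mutant replicate 2 or 3 left out. The lower calls numbered 9 with mutant replicate 1 left out and 8 with 2 or 3 left out.

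Marker genes of cell types that use the pump or these enzymes were counted in the same fit. Over all rows, 5.85% were called higher and 5.87% lower. Of 18 ionocyte markers tested, 4 were called higher and 0 lower, 22.2% in all, and their summed level ran from 1006 to 1051 CPM in wildtypes and 1092 to 1154 CPM in mutants. The called rows were slc12a3, atp1a1a.3, ceacam1 and atp1a1a.2. Listed markers not among them included foxi3a, foxi3b, ca2, ca15a, slc9a3.2, rhcgb and gcm2. Among the called ionocyte rows, atp1a1a.2 and atp1a1a.3 have counts that are not whole in any library. The same holds for the called macrophage row mfap4 and the yolk syncytial layer row apoa4b.1. Counts of the yolk syncytial layer row mttp are not whole in 5 libraries. No partner rows were sought for these markers. Of 11 neuron markers, 3 were lower and 0 higher (27.3%), with sums of 1433 to 1474 against 1421 to 1430 CPM. Of 14 yolk syncytial layer markers, 4 were lower and 0 higher (28.6%), with sums of 23640 to 25810 against 22830 to 24170 CPM and mxtx2 at 0 in all libraries. Of 13 macrophage markers, 1 was higher and 1 lower (15.4%), with sums of 102 to 107 against 119 to 127 CPM. Of 6 hatching gland markers, 1 was lower and 0 higher (16.7%), with sums of 622 to 764 against 579 to 617 CPM. Notochord markers had 3 of 9 higher, the collagen genes col9a1b, col8a1a and col2a1a, and 1 lower, cav2 (44.4%). Their sums were 1543 to 1634 CPM in wildtypes and 1829 to 2361 CPM in mutants. Within these sums col2a1a had means of 898 CPM in wildtypes and 1226 CPM in mutants. Markers of melanophores and other pigment cells had 1 of 18 higher (ltk) and 3 lower (tyrp1b, xdh and pnp4a), 22.2% in all. Their sums were 438 to 455 CPM in wildtypes and 441 to 478 CPM in mutants. The casper strain lacks most pigment cells, and which cells of the embryo these transcripts came from was not measured. Neutrophil markers had 1 of 9 higher and 1 lower (22.2%), with sums of 192 to 236 against 197 to 205 CPM, and pronephros markers 2 of 10 higher and 1 lower (30%), with sums of 199.8 to 248 against 229 to 246 CPM. The part of these cell types in the pump, cathepsin and npc1 values was not tested.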

How the data were processed

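The authors deposited RSEM expected counts per gene row, not normalized between libraries; STAR, RSEM, DESeq2 and build danRer11 are named in the submitters' processing notes, and versions, annotation and strand setting are not given in the sources used here. Of the values, 18.8% were not whole (tolerance 0.005), so overlapping, antisense and near-identical genes are uncertain. Per the labels, RNA with an integrity number of at least 8 was poly-A enriched. Columns were matched to samples by genotype and number.

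After rounding, expected counts went into edgeR 4.0.16 under R 4.3.3 (filterByExpr, minimum count 10; TMM; robust quasi-likelihood test; Benjamini-Hochberg over all 20229 rows tested; called at adjusted p under 0.05). Fold changes are log2 mutant over wildtype, and SE is their size divided by the square root of F. Named are dnajc21, every called member, the 2 not-called members of highest CPM in each role, and up to 3 called genes in each wider list by adjusted p; others were chosen after their values were seen. Members and lists were chosen with earlier results of these data known. Read-sharing pairs were sought among the 9 members with non-whole counts in at least 4 libraries (tolerance 0.011). RefSeq names and gene order came from assembly GRCz12tu, which matched 53 of 54 members; positions and sequences were not used. Limits from a count of 0 cover counting error only. The fit was tested on simulated data with a common spread for all genes and larger fold changes than those of most members. That test does not cover small changes. Alternatives were other scalings, filters and tests (limma 3.58.1, DESeq2 1.42.0), the replicate number as a block, summed rows and leaving out each library. Figures used matplotlib 3.10.9.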

Additional observations from a re-analysis of the deposited data

How the results depend on the processing

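Small changes near the threshold limit these results. The count of member rows called higher, 1 (npc1) in the results above, was 0 with library totals alone or without robust weights. Member rows called lower numbered 3 with copies summed, where fewer rows were tested. V-ATPase subunit sums called numbered 1 with DESeq2 size factors, upper-quartile factors or library totals alone. DESeq2 called 780 rows of the whole table higher and 727 lower, and 10 of the other lysosomal genes lower. The cause of these shifts was not tested. With 1 library left out, rows of the whole table called higher ran from 615 to 1376 and lower from 627 to 1282, member rows called higher from 0 to 2 and lower from 2 to 5, other lysosomal genes called higher from 1 to 7 and lower from 8 to 15, and subunit sums called from 0 to 2. The members' median log2 fold change ran from -0.09 to -0.05. The genes listed below changed sign in some fits. With all 6 libraries their log2 fold changes lay from -0.07 (atp6ap1b) to 0.04 (ctsla). Other members that changed sign with 1 library left out included ctss2.2 (-0.069 to 0.22) and atp6ap1lb (-0.13 to 0.020). With upper-quartile factors lamp2 was 0.0041, and hexb was -0.00032 when summed with gfm2. With 1 library left out the ranges were -0.12 to 0.037 for atp6ap1b, -0.087 to 0.028 for atp6v0cb, -0.059 to 0.012 for atp6v1ba, -0.12 to 0.016 for ctsa, -0.092 to 0.036 for ctsba, -0.074 to 0.14 for ctsd, -0.017 to 0.10 for ctsla, -0.014 to 0.10 for hexb and -0.052 to 0.034 for lamp2. Library numbers gave no sign of pairing. Deviations from the group means in same-numbered libraries correlated at -0.0497, -0.00251 and 0.0216 across genes. Only wildtype replicate 3 correlated best with the library of its own number. The highest value, 0.0802, was between wildtype replicate 2 and mutant replicate 1. With 3 libraries a group, these values cannot show whether same-numbered pools shared a clutch. With the replicate number as a block, 2470 rows were called, against 2372, with 1 member higher and 5 lower as before. Scalings moved the median of all rows by under 0.01 on the log2 scale. The leave-one-out values of each subunit sum, the V-ATPase counts below 0 in each fit, the subunit a sum with tcirg1a and tcirg1b (2 sums called, 15 below 0), and the fuca1.1 and ctss2.1 sums were added after seeing the data.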
